A study of Mus musculus with 24 samples.

Results

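RNA of 10 genes that mark recruited and lipid-associated macrophages was measured in mouse liver: Itgam, Itgax, Ccr2, Cx3cr1, Mpeg1, Ccl6, Cd44, Trem2, Gpnmb and Lyz2. They were chosen by symbol, and all 10 were found among the 53677 gene identifiers of the count matrix. The study compared 2 inbred strains, each fed 1 of 2 diets, with 1 liver library per mouse. There were 6 mice of 129S1/SvImJ on high-fat diet and 5 on chow, and 7 mice of C57BL/6J on high-fat diet and 6 on chow. The sample labels spell C57BL/6J as C57Bl/6J, and they give no age, sex, diet composition or length of feeding. The series title concerns binding of the transcription factor TCF7L2, and no group carries an engineered allele or a treatment other than diet.

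The liver holds a large resident macrophage population, the Kupffer cells, which line the sinusoids and are marked by Clec4f, Vsig4 and Timd4. Blood monocytes can enter the liver through the chemokine receptor Ccr2 and become macrophages there. In fatty liver and in adipose tissue, macrophages that take up lipid and debris express Trem2, Gpnmb and Itgax, and are known as lipid-associated macrophages. Several of the 10 genes are not particular to those cells, since Kupffer cells also express Mpeg1 and Lyz2, and many leukocytes express Cd44. In whole liver, fewer cells of a type and less RNA per cell cannot be told apart. The submitters' processing notes list only the mm10 genome build for the reads of both strains. Whether sequence differences between the strains changed the counts of single genes was not tested.

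The strain difference was the broadest result. Mpeg1, Cd44 and Lyz2 were lower in 129S1/SvImJ than in C57BL/6J on both diets, Ccl6 was lower on chow, and Cx3cr1 was lower on high-fat diet. The Lyz2 call on high-fat diet ended without some single libraries. By strain, 25.0% of all genes were called on chow and 37.0% on high-fat diet. The difference was not particular to these markers, since 12 of 14 Kupffer genes were lower on chow and 8 on high-fat diet. On high-fat diet Mpeg1 and Ccl6 rose in 129S1/SvImJ and Itgax rose in C57BL/6J. Of the 10 genes 8 were tested, and none of these 8 was called for the difference between the diet effects, so these responses were not shown to differ by strain. Itgax differed by diet by 1.77 on the log2 scale in C57BL/6J and by 1.30, not called, in 129S1/SvImJ. Its rise in C57BL/6J did not pass the test without some single libraries. The genes most tied to lipid-associated macrophages, Itgax, Gpnmb and Trem2, were highest in a few mice of several groups.

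The labelled identity was checked against the levels of the genes themselves. Itgam, which encodes the integrin CD11b of monocytes, neutrophils and recruited macrophages, had 1 to 8 counts in every library. Trem2, a receptor for lipids on macrophages, had 0 to 31 counts. Both were below the filter on low counts, which 8 of the 10 genes and 27.1% of all gene identifiers passed. The 2 genes with the most counts, Mpeg1 and Lyz2, are ones that Kupffer cells also express.

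Levels are given as CPM (counts scaled to a common library size), and per kilobase of exon where genes are set against each other. In C57BL/6J on high-fat diet the level per kilobase averaged 32.5 ± 12 for Mpeg1 and 31.9 ± 10.1 for Lyz2 (CPM per kilobase, SD, n = 7). Cd44 averaged 3.21 ± 1.49 and Ccl6 3.2 ± 1.48 on that scale. Itgax averaged 0.772 ± 0.521, Ccr2 0.752 ± 0.629, Cx3cr1 0.506 ± 0.519 and Gpnmb 0.431 ± 0.528, all in CPM per kilobase. Trem2, at 0.22 ± 0.146, and Itgam, at 0.0578 ± 0.0364, were the lowest. Mpeg1 and Lyz2 overlapped in level, as did Cd44 and Ccl6, and the 4 genes from Itgax to Gpnmb lay within each other's SD.

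**Figure D1:**
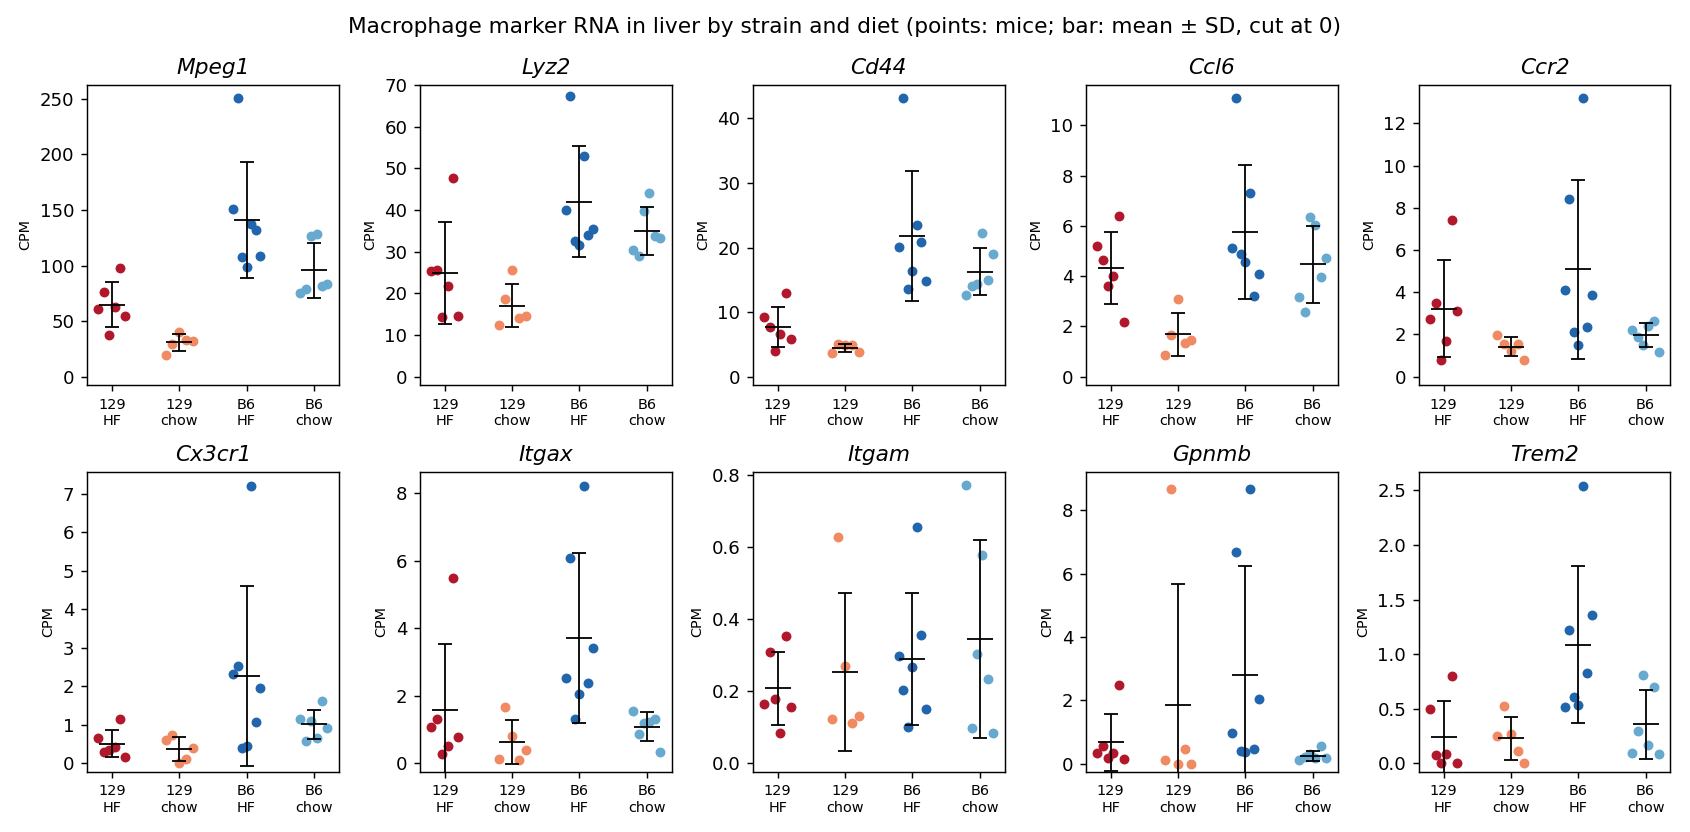
CPM of the 10 genes in every mouse, with 129S1/SvImJ written as 129, C57BL/6J as B6 and high-fat diet as HF; bars give the mean ± SD, cut off at 0. Mpeg1 and Cd44 show no overlap between strains on either diet, while Itgax, Gpnmb and Trem2 are spread out by single mice.

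The promoters of Mpeg1, Cd44 and Lyz2 are shown because these 3 genes were called in both strain comparisons. Each covers 250 bases before to 50 after the annotated start, from RefSeq (GRCm38.p6), 5′ to 3′ on the strand of the gene. Capitals mark the letters GAGGAA on either strand, the core to which the myeloid factor PU.1 binds. The windows are chr19:12460520-12460819 on the plus strand for Mpeg1, chr2:102901616-102901915 on the minus strand for Cd44 and chr10:117282223-117282522 on the minus strand for Lyz2.
Mpeg1: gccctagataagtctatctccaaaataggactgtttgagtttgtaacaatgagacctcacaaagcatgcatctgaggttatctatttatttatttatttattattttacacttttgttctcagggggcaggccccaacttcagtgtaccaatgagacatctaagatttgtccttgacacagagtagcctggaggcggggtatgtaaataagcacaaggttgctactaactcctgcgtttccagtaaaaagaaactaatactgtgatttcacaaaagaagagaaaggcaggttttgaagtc
Cd44: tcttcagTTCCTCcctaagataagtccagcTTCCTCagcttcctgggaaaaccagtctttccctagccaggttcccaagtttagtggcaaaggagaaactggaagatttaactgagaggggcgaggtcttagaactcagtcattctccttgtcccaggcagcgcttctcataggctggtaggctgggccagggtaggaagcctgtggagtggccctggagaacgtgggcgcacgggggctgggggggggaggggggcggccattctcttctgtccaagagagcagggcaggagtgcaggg
Lyz2: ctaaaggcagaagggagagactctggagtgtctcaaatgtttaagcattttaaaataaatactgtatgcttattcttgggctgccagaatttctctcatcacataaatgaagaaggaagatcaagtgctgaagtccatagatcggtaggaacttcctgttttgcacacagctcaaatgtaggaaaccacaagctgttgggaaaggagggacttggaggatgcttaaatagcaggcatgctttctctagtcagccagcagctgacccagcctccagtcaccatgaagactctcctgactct
All 10 genes had a promoter in the RefSeq table. GAGGAA was found in 3 of the 10, with 3 matches for Itgam, 2 for Cd44 and 1 for Trem2. It is in 28.3% of all 32851 promoters of that length. The E-boxes CACGTG and CATGTG, which factors of the MITF and TFEB family bind, were in 0 of the 10 windows and in 7.15% and 14.2% of all promoters. A match is a run of letters in a window and was not measured as binding.

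Total gene counts ran from 6707013 to 13124881 per library and were lower in every 129S1/SvImJ library on chow (up to 9184270) than in any C57BL/6J library on chow (from 10162138). Several features of the libraries touch the results. Fat-cell transcripts (Adipoq, Lep, Plin1 and Retn) summed to over 1 CPM in 2 libraries, replicate 1 of 129S1/SvImJ on chow (1.36 CPM) and replicate 5 of C57BL/6J on high-fat diet (6.31 CPM). In addition, replicate 5 of 129S1/SvImJ on high-fat diet and C57BL/6J replicates 2 and 5 on high-fat diet were high for most of the 10 genes. The level of 7SK RNA, an abundant small nuclear RNA, ran from 2100 to 3490 CPM in the lower 12 libraries and from 3560 to 7260 CPM in the upper 12, and every group had libraries in both.

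Chemokine and chemokine receptor genes came first in the order of recruitment. Ccr2 (ENSMUSG00000049103.14, chr9:124101950-124113557, plus strand, mm10) encodes the receptor for the monocyte attractant CCL2. Ccr2 had 0.809, 1.70, 2.73, 3.12, 3.48 and 7.44 CPM in 129S1/SvImJ mice on high-fat diet, against 0.788, 1.21, 1.57, 1.57 and 1.98 CPM in those on chow. The groups overlapped, and replicate 5 stood highest on high-fat diet. In C57BL/6J the lowest, median and highest values of Ccr2 were 1.52, 3.85 and 13.2 CPM on high-fat diet and 1.18, 2.04 and 2.64 CPM on chow. Again the groups overlapped, with replicates 5 and 2 on high-fat diet at 13.2 and 8.43 CPM. The diet difference of Ccr2 was 1.16 ± 0.57 on the log2 scale in 129S1/SvImJ (SE, adjusted p = 0.218, edgeR quasi-likelihood test) and 1.37 ± 0.47 in C57BL/6J (adjusted p = 0.0508), and neither was called at 0.05. DESeq2 called the difference in C57BL/6J (1.38, adjusted p = 0.0165), as did 5 of the 24 edgeR fits without 1 library.

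Cx3cr1 (ENSMUSG00000052336.7, chr9:119901616-120069879, minus strand) encodes the fractalkine receptor of patrolling monocytes and some tissue macrophages. It had a lowest, median and highest value of 0.156, 0.393 and 1.15 CPM in 129S1/SvImJ on high-fat diet, against 0.406, 1.96 and 7.21 CPM in C57BL/6J on high-fat diet. The ranges overlapped, but 5 of the 7 C57BL/6J mice were at or above 1.07 CPM and only 1 of the 6 129S1/SvImJ mice was. The strain difference of Cx3cr1 on high-fat diet was -2.11 ± 0.57 on the log2 scale (SE, edgeR adjusted p = 0.00494). On chow the values were 0, 0.112, 0.394, 0.618 and 0.733 CPM in 129S1/SvImJ, against a range of 0.59 to 1.63 CPM in C57BL/6J. The chow difference, -1.39 ± 0.76, was not called (adjusted p = 0.198). The 0 belongs to replicate 3, where 3 counts, the most that a count of 0 allows, would be 0.404 CPM (counting error only). The annotated span of Cx3cr1 overlaps other genes, among them Gorasp1 and Csrnp1 on the same strand with 273 to 624 and 75 to 351 counts per library, so its low counts are uncertain where exons meet.

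Ccl6 (ENSMUSG00000018927.3, chr11:83587882-83593087, minus strand) encodes a chemokine that myeloid cells secrete. In 129S1/SvImJ it had 2.18, 3.6, 4, 4.64, 5.22 and 6.38 CPM on high-fat diet, against 0.866, 1.35, 1.44, 1.67 and 3.1 CPM on chow. Only the lowest high-fat mouse fell below the highest chow mouse. The log2 difference of Ccl6 was 1.39 ± 0.35 (SE, edgeR adjusted p = 0.0118). In C57BL/6J Ccl6 ranged from 3.2 to 11.1 CPM on high-fat diet and from 2.56 to 6.37 CPM on chow, with a log2 difference of 0.36 ± 0.27 that was not called (adjusted p = 0.414). Between strains, Ccl6 was lower in 129S1/SvImJ on chow, by -1.42 ± 0.35 on the log2 scale (edgeR adjusted p = 0.00391), and on high-fat diet the difference was -0.38 ± 0.27 (adjusted p = 0.291). The difference between these diet effects, 1.04 ± 0.45, had an edgeR adjusted p of 0.289 and was not called.

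Adhesion receptors formed the next set. Cd44 (ENSMUSG00000005087.17, chr2:102811141-102901665, minus strand) encodes a receptor for hyaluronan found on leukocytes and on activated macrophages. On high-fat diet Cd44 had 3.96, 5.77, 6.64, 7.65, 9.19 and 13 CPM in 129S1/SvImJ mice, against a lowest, median and highest value of 13.5, 20.1 and 43.2 CPM in C57BL/6J mice. On chow it had 3.59, 3.81, 4.83, 4.86 and 5.02 CPM in 129S1/SvImJ mice, against 12.6, 14.1, 14.4, 15, 19 and 22.3 CPM in C57BL/6J mice. No mouse of 129S1/SvImJ reached the lowest C57BL/6J mouse of the same diet. The log2 strain difference of Cd44 was -1.48 ± 0.26 on high-fat diet (SE, edgeR adjusted p = 8.81e-05) and -1.87 ± 0.31 on chow (edgeR adjusted p = 7.89e-05). Diet differences of Cd44 were 0.81 ± 0.32 in 129S1/SvImJ (adjusted p = 0.115) and 0.42 ± 0.24 in C57BL/6J (adjusted p = 0.269), and neither was called by edgeR. DESeq2 called the one in 129S1/SvImJ (adjusted p = 0.0426).

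Itgax (ENSMUSG00000030789.9, chr7:128129547-128150657, plus strand) encodes the integrin CD11c of dendritic cells and lipid-associated macrophages. In C57BL/6J it had a lowest, median and highest value of 1.32, 2.53 and 8.2 CPM on high-fat diet, against 0.338, 1.23 and 1.54 CPM on chow. Replicates 5 and 2 were highest on high-fat diet, at 8.2 and 6.09 CPM, and the other 5 mice had 1.32 to 3.4 CPM. Only replicate 3 on high-fat diet, at 1.32 CPM, lay within the chow range. The log2 difference was 1.77 ± 0.57 (SE, edgeR adjusted p = 0.0379). Without both libraries with fat-cell transcripts it was 1.44 (adjusted p = 0.0999, with 11.9% of all genes called) and without the 3 high libraries 1.11 (adjusted p = 0.0797, with 8.98% called). The call also ended when any 1 of the 6 C57BL/6J chow libraries, or replicate 2, 5 or 7 on high-fat diet, was left out, with log2 differences of 1.44 to 1.89 and an adjusted p up to 0.0988.

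In 129S1/SvImJ Itgax had 0.27, 0.511, 0.779, 1.08, 1.31 and 5.49 CPM on high-fat diet and 0.112, 0.124, 0.394, 0.809 and 1.67 CPM on chow. The groups overlapped except for replicate 5 on high-fat diet. The diet difference, 1.30 ± 0.76 on the log2 scale, was not called (adjusted p = 0.308). On high-fat diet the strain difference of Itgax was -1.21 ± 0.54 (adjusted p = 0.0834), and without replicate 5 of 129S1/SvImJ it was -2.20 (edgeR adjusted p = 0.00147). On chow it was -0.75 ± 0.79 (adjusted p = 0.547).

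Itgam (ENSMUSG00000030786.18, chr7:128062640-128118491, plus strand) was near the limit of detection in all groups. It averaged 0.208 ± 0.102 CPM in 129S1/SvImJ on high-fat diet (SD, n = 6) and 0.253 ± 0.219 on chow (SD, n = 5). In C57BL/6J it averaged 0.29 ± 0.183 CPM on high-fat diet (SD, n = 7) and 0.345 ± 0.276 on chow (SD, n = 6). A difference was not detectable at this depth: in a fit without the filter on low counts (30864 genes) the lowest edgeR adjusted p over the 4 diet and strain comparisons was 0.657.

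Genes of phagocyte defence gave the most counts. Mpeg1 (ENSMUSG00000046805.9, chr19:12460779-12465283, plus strand) encodes perforin-2, a pore-forming protein of the macrophage phagosome. In 129S1/SvImJ it had 37.7, 54.5, 60.9, 62.8, 76.2 and 97.4 CPM on high-fat diet, against 19.3, 29.8, 32.4, 32.8 and 40.3 CPM on chow. Only the lowest high-fat mouse was below the highest chow mouse. The log2 difference of Mpeg1 was 1.07 ± 0.26 (SE, edgeR adjusted p = 0.0115). In C57BL/6J its lowest, median and highest values were 98.3, 132 and 251 CPM on high-fat diet and 75.6, 82.4 and 128 CPM on chow, a log2 difference of 0.56 ± 0.23 that was not called (adjusted p = 0.106).

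Between strains the Mpeg1 values did not overlap. Its group means on high-fat diet were 64.9 ± 20.3 CPM in 129S1/SvImJ (SD, n = 6) and 141 ± 52 CPM in C57BL/6J (SD, n = 7). On chow they were 30.9 ± 7.6 CPM in 129S1/SvImJ (SD, n = 5) and 95.7 ± 24.8 CPM in C57BL/6J (SD, n = 6). The log2 strain difference was -1.11 ± 0.23 on high-fat diet (SE, edgeR adjusted p = 0.000707) and -1.63 ± 0.27 on chow (edgeR adjusted p = 8.27e-05). From high to low the group means of Mpeg1, Cd44, Lyz2 and Ccl6 all ran C57BL/6J on high-fat diet, C57BL/6J on chow, 129S1/SvImJ on high-fat diet, 129S1/SvImJ on chow. For none of the 4 did both C57BL/6J groups differ past the test, and the middle pair, which differ in strain and diet, was not compared. The 129S1/SvImJ groups differed past the test for Mpeg1 and Ccl6.

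Lyz2 (ENSMUSG00000069516.8, chr10:117277331-117282321, minus strand) encodes the lysozyme of macrophages and neutrophils. On chow it had 12.5, 14.1, 14.6, 18.6 and 25.5 CPM in 129S1/SvImJ mice, against 28.9, 30.4, 33.3, 33.9, 39.8 and 44 CPM in C57BL/6J mice. These groups did not overlap, and the log2 difference was -1.04 ± 0.28 (SE, edgeR adjusted p = 0.00804). The call on chow held in all 24 fits without 1 library. It ended in 3 of 15 other fits, with log2 differences of -1.12 to -0.061 over the 15. On high-fat diet the lowest, median and highest values were 14.4, 23.6 and 47.7 CPM in 129S1/SvImJ and 31.7, 35.4 and 67.3 CPM in C57BL/6J. Only replicate 5 of 129S1/SvImJ lay inside the C57BL/6J range, and the log2 difference was -0.74 ± 0.24 (edgeR adjusted p = 0.0204). That call ended without replicate 3 or 6 of 129S1/SvImJ or replicate 2 of C57BL/6J, with log2 differences of -0.62, -0.64 and -0.59. It also ended in 4 of 15 other fits: with no filter on low counts (-0.72, adjusted p = 0.0512), with only the compared groups (-0.75, adjusted p = 0.0556), with the Kupffer marker level as a covariate (-0.32, adjusted p = 0.167) and within the upper 12 libraries by 7SK RNA (-0.35, adjusted p = 0.441). Diet differences of Lyz2 were 0.56 ± 0.28 in 129S1/SvImJ (adjusted p = 0.224) and 0.26 ± 0.24 in C57BL/6J (adjusted p = 0.514). The transcripts of Lyz2 and its neighbour Lyz1 are 95.8% identical over 1264 aligned columns, so reads could be split between them, but Lyz1 had 0 to 4 counts per library and summing both ended no call.

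Gpnmb and Trem2 mark the lipid-associated state. Gpnmb (ENSMUSG00000029816.10, chr6:49036546-49070929, plus strand) encodes a lysosomal glycoprotein. In C57BL/6J on high-fat diet it had 0.358, 0.406, 0.474, 0.967, 2.04, 6.7 and 8.69 CPM, against 0.0965, 0.166, 0.169, 0.197, 0.303 and 0.544 CPM on chow. The 4 highest high-fat mice lay above every chow mouse. The log2 difference, 3.43 ± 1.16, was not called by edgeR (adjusted p = 0.0502), with replicates 5 and 2 holding the highest values. DESeq2 called it (3.52, adjusted p = 0.0122), as did 9 of the 24 edgeR fits without 1 library, with an adjusted p of 0.0118 to 0.134 over the 24.

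In 129S1/SvImJ Gpnmb had 0.156, 0.18, 0.331, 0.341, 0.541 and 2.48 CPM on high-fat diet and 0, 0, 0.124, 0.45 and 8.69 CPM on chow. A single chow mouse, replicate 2 with 83 counts, was as high as any C57BL/6J mouse. The diet difference in 129S1/SvImJ was -1.49 ± 1.10 on the log2 scale (adjusted p = 0.439), and 2.08 without that mouse. The Gpnmb strain difference on chow was 2.91 ± 1.29 (adjusted p = 0.107), and -0.65 without it. On high-fat diet the strain difference was -2.01 ± 0.98 (adjusted p = 0.116). In the 2 chow libraries with 0 counts of Gpnmb, 3 counts would be 0.404 and 0.394 CPM.

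Trem2 (ENSMUSG00000023992.14, chr17:48346401-48354147, plus strand) had 0, 0, 0.0773, 0.0852, 0.497 and 0.797 CPM in 129S1/SvImJ on high-fat diet and 0, 0.112, 0.247, 0.27 and 0.523 CPM on chow. In C57BL/6J it had 0.521, 0.536, 0.609, 0.83, 1.22, 1.36 and 2.54 CPM on high-fat diet and 0.0846, 0.0965, 0.166, 0.295, 0.699 and 0.808 CPM on chow. It was detected in every C57BL/6J mouse. Only replicate 5 of 129S1/SvImJ on high-fat diet lay within the range of C57BL/6J on high-fat diet. In the fit without the filter on low counts the strain difference on high-fat diet was -2.03 on the log2 scale (edgeR adjusted p = 0.0177, where 17.9% of all genes in that fit were called), and the C57BL/6J diet difference was 1.58 (adjusted p = 0.115). For Trem2, 3 counts would be 0.269 and 0.467 CPM in the 2 high-fat libraries at 0 and 0.394 CPM in the chow library at 0.

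**Figure D2:**
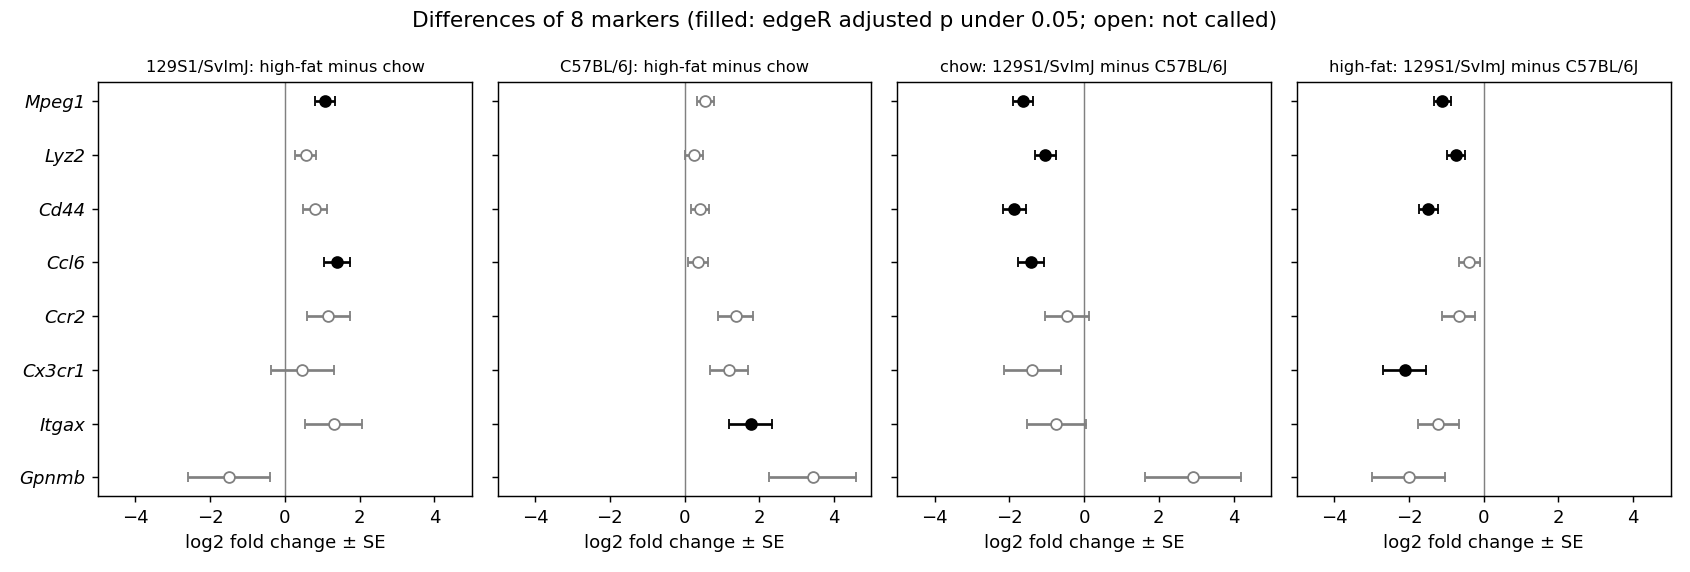
Log2 fold change ± SE of the 8 genes that passed the filter, in 4 comparisons, with each panel's title giving the direction of subtraction; filled points have an edgeR adjusted p under 0.05. The strain panels lie mostly left of 0, with Gpnmb on chow at 2.91 as the exception, and the diet panels mostly right of 0, with Gpnmb in 129S1/SvImJ at -1.49 as the exception.

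Counted over the 8 tested genes, 2 rose on high-fat diet in 129S1/SvImJ (Mpeg1 and Ccl6), where 5.41% of all 14533 tested genes were called higher (10.4% in either direction). In C57BL/6J 1 rose (Itgax), where 7.66% of all genes were called higher (14.9% in either direction). On chow 4 of the 8 were lower in 129S1/SvImJ, against 12.5% of all genes called lower (25.0% in either direction), and on high-fat diet 4 of 8, against 19.1% (37.0% in either direction). Among the latter was Cx3cr1, with 13 counts in replicate 5 of 129S1/SvImJ on high-fat diet and at most 8 in that strain's other libraries. It passed the filter on low counts through the C57BL/6J libraries, so its place in this count is not independent of strain. Groups did not overlap for 3 of the 8 on chow (Mpeg1, Cd44 and Lyz2) and 2 on high-fat diet (Mpeg1 and Cd44), against 7.65% and 7.18% of all genes not overlapping and lower. Diet groups overlapped for each of the 8 in both strains, while 7.73% of all genes in 129S1/SvImJ and 3.89% in C57BL/6J did not. The median log2 difference over the 8 was 0.94 for diet in 129S1/SvImJ, 0.87 for diet in C57BL/6J, -1.22 for strain on chow and -1.16 for strain on high-fat diet, and medians over all tested genes lay between -0.004 and 0.010. None of the 8 was called for the difference between the diet effects, where 0.296% of all genes were (edgeR). There, unadjusted p was under 0.05 for 2 genes, Ccl6 and Gpnmb, and DESeq2 called 0 of the 8 too, against 2.04% of all genes.

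The diet calls in 129S1/SvImJ were looked at within the lower and the upper 12 libraries by 7SK RNA. Mpeg1 differed by 1.04 in the lower set (edgeR adjusted p = 0.17) and 1.01 in the upper set (adjusted p = 0.0903). Ccl6 differed by 1.41 (adjusted p = 0.132) and 1.25 (adjusted p = 0.104). Sizes were close to those over all libraries, and neither gene was called in either set. For 129S1/SvImJ the lower set held 3 high-fat and 3 chow mice and the upper set 3 and 2. A lost call there cannot be told apart from the smaller number of mice. Itgax in C57BL/6J differed by 1.48 (adjusted p = 0.257) and 2.06 (adjusted p = 0.196), also not called. Within both sets the strain difference of Cd44 and Mpeg1 was called each time on both diets.

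Kupffer cell genes moved with the strain difference and, in direction, with diet in 129S1/SvImJ. Of 14 Kupffer genes, 12 were lower and 1 higher in 129S1/SvImJ on chow (median log2 difference -1.18), and 8 were lower on high-fat diet (median -0.72), where 12.5% and 19.1% of all genes were called lower. For diet in 129S1/SvImJ, 13 of the 14 had a positive log2 difference (median 0.63), but 1 passed the test, C1qa, a complement gene, at 0.72 (edgeR adjusted p = 0.033), against 5.41% of all genes called higher. For diet in C57BL/6J the median was 0.13, with 8 of the 14 positive. Clec4f, a lectin made by Kupffer cells, averaged 46.5 ± 12.6 CPM in 129S1/SvImJ (SD, n = 6) and 70.6 ± 21.9 CPM in C57BL/6J on high-fat diet (SD, n = 7). On chow Clec4f averaged 36.4 ± 17.1 CPM in 129S1/SvImJ (SD, n = 5) and 76.8 ± 15.8 CPM in C57BL/6J (SD, n = 6). The sum over the 14 genes ran from 316 to 595 and from 345 to 544 CPM in 129S1/SvImJ on high-fat diet and chow, and from 475 to 903 and from 467 to 721 CPM in C57BL/6J on high-fat diet and chow. Slc40a1, the 1 gene higher in 129S1/SvImJ on chow (0.42, edgeR adjusted p = 0.0053), held a large part of these sums. On chow it averaged 253 CPM of a mean sum of 419 in 129S1/SvImJ and 189 of 546 in C57BL/6J. On high-fat diet it averaged 243 of 479 and 207 of 579 CPM. The overlap of the sums therefore does not describe the other genes. No Kupffer gene of the list was at 0 in a whole group.

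With the summed level of Clec4f, Vsig4 and Timd4 as a covariate, a fit chosen after the values were seen, none of the 8 genes was called between strains on chow, where 11.3% of all genes were (edgeR). Unadjusted p was under 0.05 there for 2 of the 8, Mpeg1 and Cd44. On chow the summed level was 27.6 to 78.4 CPM in 129S1/SvImJ and 83.3 to 136 CPM in C57BL/6J, without overlap. The fit therefore cannot separate strain from Kupffer level on chow. The log2 strain difference on chow was then -0.54 for Mpeg1 (edgeR adjusted p = 0.0517), -0.75 for Cd44 (adjusted p = 0.0787), -0.24 for Ccl6 (adjusted p = 0.723) and -0.061 for Lyz2 (adjusted p = 0.926). On high-fat diet Mpeg1, Cd44 and Cx3cr1 were still called, and 31.6% of all genes were. The diet calls of Mpeg1 (0.60) and Ccl6 (0.93) in 129S1/SvImJ were also kept, with 6.96% of all genes called. In C57BL/6J the fit called 4 genes for diet, Itgax, Ccr2, Mpeg1 and Cd44, against 16.1% of all genes.

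Levels were also set against Clec4f within each mouse. Mpeg1 stood at 123 to 166 CPM per 100 CPM of Clec4f (median 136) in 129S1/SvImJ on high-fat diet and at 62.9 to 121 (median 88.6) on chow. In C57BL/6J the same ratio was 149 to 245 (median 197) on high-fat diet and 114 to 152 (median 118) on chow. The diet groups were only just apart in this ratio in 129S1/SvImJ (from 123 against up to 121) and overlapped narrowly in C57BL/6J. The ratio was not tested, and the share of all genes without overlap in it was not computed. Clec4f was chosen after values were seen. Its diet difference in 129S1/SvImJ was 0.36 on the log2 scale, against 0.71 for Vsig4 and 0.75 for Timd4, none of them called. A ratio to those genes could therefore differ. Lyz2 per 100 CPM of Clec4f had medians of 48.2 and 47.4 in 129S1/SvImJ on high-fat diet and chow, and of 57.4 and 46 in C57BL/6J on high-fat diet and chow. The highest ratio in C57BL/6J on high-fat diet was in replicate 5 for Mpeg1, Lyz2, Cd44, Ccl6, Ccr2 and Itgax alike. A ratio shows that the genes did not move equally and does not say which one moved.

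**Figure D3:**
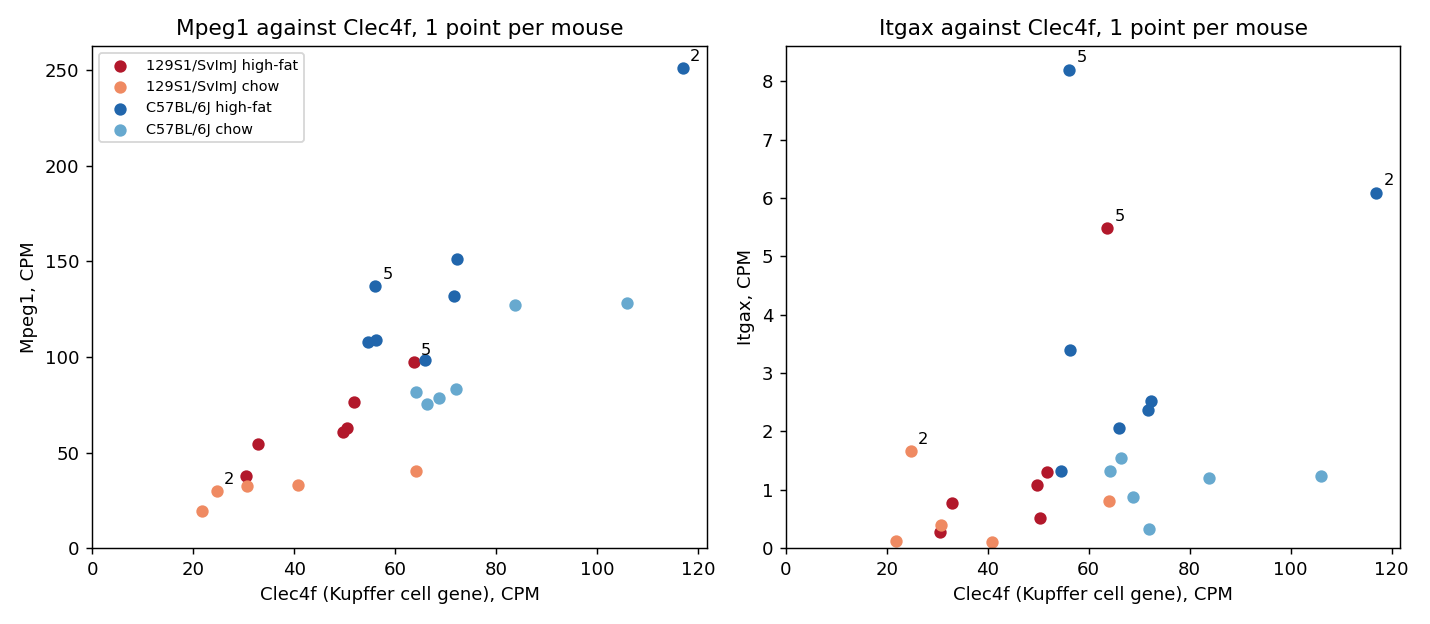
CPM of Mpeg1 (left) and Itgax (right) against CPM of Clec4f, 1 point per mouse, coloured by group; numbers mark replicate 5 of 129S1/SvImJ on high-fat diet, replicate 2 of 129S1/SvImJ on chow and C57BL/6J replicates 2 and 5 on high-fat diet. Mpeg1 climbs with Clec4f, and Itgax is high in replicate 5 of C57BL/6J on high-fat diet (8.2 CPM), where Clec4f was 56.1 CPM.

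Single mice carried the higher values of several genes at once. Replicate 5 of 129S1/SvImJ on high-fat diet was the highest of its group for all 10 genes. In C57BL/6J on high-fat diet replicate 5 was highest for 6 genes (Itgam, Itgax, Ccr2, Cx3cr1, Trem2 and Gpnmb) and replicate 2 for the other 4 (Mpeg1, Ccl6, Cd44 and Lyz2). Replicate 2 of 129S1/SvImJ on chow was highest for 6 genes. Mmp12, a macrophage elastase that is not one of the 10, had 8.24 CPM in replicate 5 of 129S1/SvImJ on high-fat diet and 2.93 CPM in replicate 2 of 129S1/SvImJ on chow. It had 9.76 and 4.57 CPM in C57BL/6J replicates 5 and 2 on high-fat diet. Replicate 2 also had the highest Clec4f of its group, 117 CPM, whereas replicate 5, the library with fat-cell transcripts, had 56.1 CPM.

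**Figure D4:**
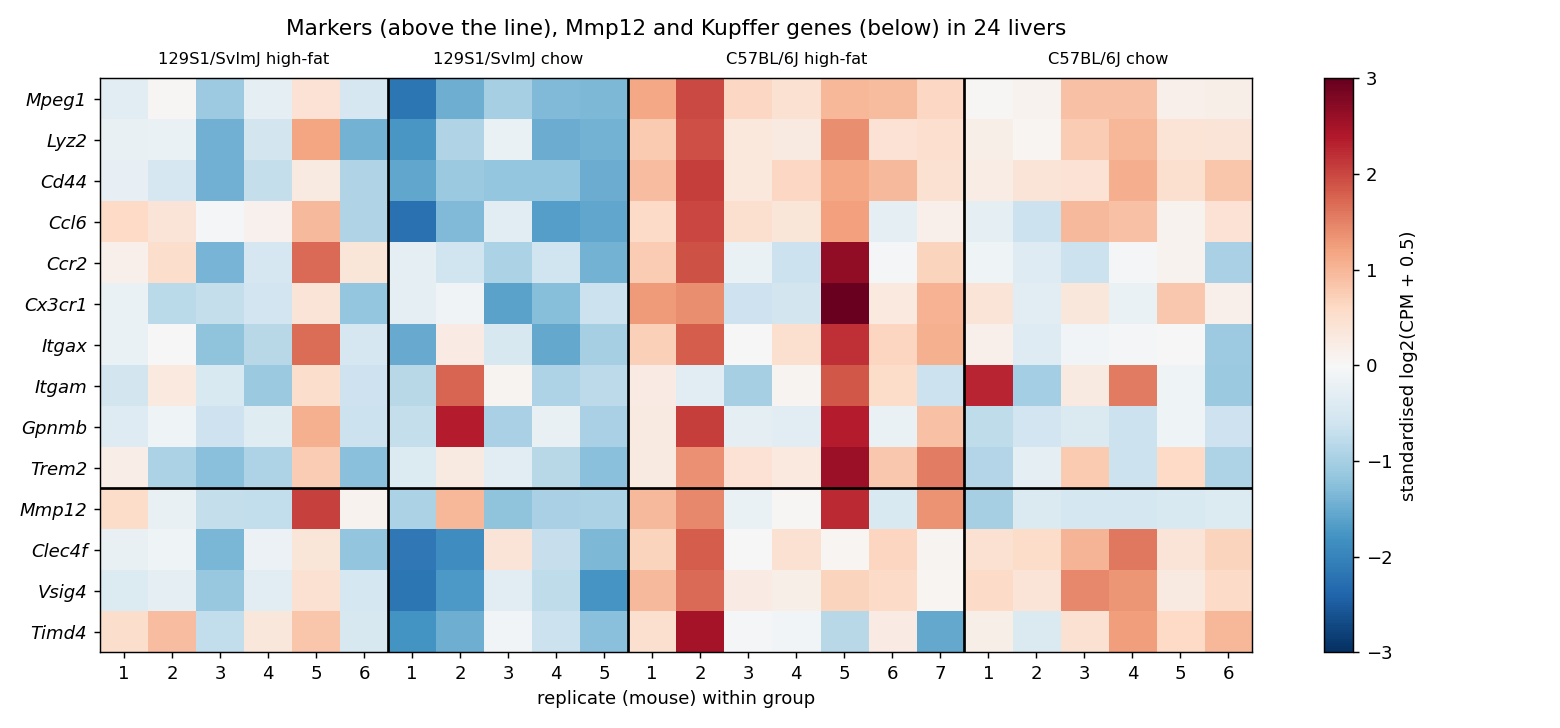
Level of the 10 genes, Mmp12 and 3 Kupffer genes in each of 24 livers, as log2(CPM + 0.5) centred and divided by the SD over all livers, with groups separated by vertical lines. Replicate 5 of C57BL/6J on high-fat diet is high for the upper genes but not for Clec4f and Timd4, and replicate 2 is high for both sets.

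Genes that work with these markers were counted as a list of 13 ligands, adaptors and factors, of which 9 were tested. None was called for diet in either strain (edgeR; median log2 differences 0.44 in 129S1/SvImJ and 0.37 in C57BL/6J), and unadjusted p was under 0.05 for 2 and 3 of the 9. On chow 5 of the 9 were lower in 129S1/SvImJ and on high-fat diet 6, against 12.5% and 19.1% of all genes called lower. Tyrobp, the signalling adaptor of Trem2, averaged 4.03 ± 1.09 CPM in 129S1/SvImJ and 6.88 ± 3.36 CPM in C57BL/6J on high-fat diet (SD, n = 6 and 7), with a log2 difference of -0.76 (edgeR adjusted p = 0.0242). Itgb2, the β2 chain that pairs with the Itgam and Itgax products, differed by -0.90 (edgeR adjusted p = 0.00883). Syk, a kinase downstream of Tyrobp, differed by -0.91 (edgeR adjusted p = 0.000352), and Spi1, which encodes PU.1, by -0.88 (edgeR adjusted p = 0.0048). The Ccr2 ligand gene Ccl2 did not pass the filter and had at most 37 counts in a library. The lowest, median and highest values of Ccl2 were 0.179, 0.893 and 3.05 CPM in C57BL/6J on high-fat diet and 0.0983, 0.246 and 0.497 CPM on chow.

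Among 18 other genes of lipid-associated macrophages, all of them tested, 1 rose on high-fat diet in 129S1/SvImJ, and 5 rose and 2 fell in C57BL/6J. Over all genes 5.41% were called higher for diet in 129S1/SvImJ, so 1 of 18 is near the background, and 14.9% were called in either direction in C57BL/6J. Hepatocytes and other liver cells express several of them, such as the lysosomal genes Ctsb, Ctsd and Lipa. In 129S1/SvImJ the gene that rose was Lpl, lipoprotein lipase, by 1.13 on the log2 scale (edgeR adjusted p = 0.00788). In C57BL/6J Lgals1, a galectin, rose by 1.76 (edgeR adjusted p = 0.00142), Mmp12 by 3.07 (adjusted p = 0.0322) and Capg, an actin-capping protein gene, by 1.10 (adjusted p = 0.0265), while Fabp5, a fatty acid binding protein gene, fell by 2.71 (adjusted p = 0.000205). Replicate 5, the high-fat library with fat-cell transcripts, was highest of its group for Lgals1 (63.4 CPM, median 28.9) and Mmp12 (9.76 CPM, median 2.9). Capg was highest in replicate 2. No fit without replicate 5 is given for them. Between strains 6 of the 18 were lower and 1 higher in 129S1/SvImJ on chow, and 10 lower and 2 higher on high-fat diet, where 25.0% and 37.0% of all genes were called in either direction. Lgals1 averaged 1.61 CPM in 129S1/SvImJ and 28.8 CPM in C57BL/6J on high-fat diet, a log2 difference of -4.12 (edgeR adjusted p = 9.44e-08).

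Among markers of other blood cells, the neutrophil genes summed to at most 7.72 CPM in a library and the lymphocyte genes to at most 10.7 CPM. Dendritic cell genes summed to 16.3 to 34.1 CPM, with Zbtb46 at group means of 13.8 to 17.8 CPM. Of 8 neutrophil genes 1, Csf3r, was tested, and it was lower in 129S1/SvImJ on both diets. The neutrophil genes summed to 1.36 to 5.58 CPM in 129S1/SvImJ and 2.06 to 7.72 CPM in C57BL/6J on high-fat diet. Ly6g, which defines neutrophils, had 1 count in 1 mouse of 129S1/SvImJ on high-fat diet and 0 in all other mice. On chow the neutrophil genes summed to 1.21 to 1.67 CPM in 129S1/SvImJ and 3.11 to 5.01 CPM in C57BL/6J. Csf3r made up most of both, averaging 1.05 CPM of a mean sum of 1.4 in 129S1/SvImJ and 3.06 of 3.91 in C57BL/6J. Of 10 other monocyte genes 4 were tested, and Fcgr1, an IgG receptor gene, was lower in 129S1/SvImJ on both diets, by -1.37 on high-fat diet (edgeR adjusted p = 0.000652) and -1.82 on chow (adjusted p = 0.000804). The monocyte genes summed to 6.74 to 16.6 CPM in 129S1/SvImJ and 8.84 to 28 CPM in C57BL/6J on high-fat diet, and to 6.56 to 10.8 and 9.27 to 15.5 CPM on chow. Of 12 lymphocyte genes 5 were tested and 4, all of B cells, were lower in 129S1/SvImJ on both diets, and 2 of 3 tested dendritic cell genes were too, with 12.5% of all genes called lower on chow and 19.1% on high-fat diet. How far any of these cell types entered the strain difference was not tested.

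Likeness over the 24 libraries was measured as Pearson's r of log2 CPM with the mean of the 8 standardised genes. The marker genes themselves and the genes of the other lists were left out of this ranking and of those for single genes. Whether they were closer than the genes named here is therefore not given. Iqgap1 was closest (r = 0.96), then Myo1f and Adcy7 (0.95), and Mki67, Clec7a, Plek, Fam129a and Cyth4 (0.94). For single genes, Mpeg1 was most like Laptm5 (0.95), Cd44 like Themis2, Slc15a3 and Dock2 (0.96), Lyz2 like Tmsb4x and Cybb (0.96), and Ccl6 like Cybb (0.90). Itgax was most like Mki67 (0.89), Ccr2 like Tagln2 (0.85), Cx3cr1 like Loxl2 (0.92) and Gpnmb like Anxa1 (0.81). These values are across the same 24 libraries, so they share the strain difference, the diet difference and the few high mice.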

How the data were processed

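RNA was measured in 24 livers, each with its own mouse identifier. Within every group the identifiers share 1 of 2 leading numbers (such as 109 and 113 in 129S1/SvImJ on high-fat diet), whose meaning the labels do not give. No number is shared between groups, and a fit with the number nested in the group called as many of the 10 genes in each comparison as the main one. Ribosomal RNA was removed and a directional kit was used, per the labels' protocols. STAR 2.5.4b, Bowtie2 2.2.3, Trimmomatic 0.36 and DESeq2 1.26.0, with the mm10 build, are listed in the submitters' processing notes. For the counting, neither the annotation release nor the strand setting is given in those sources. The authors deposited raw counts per gene and a matrix of variance-stabilized values on a log2 scale, which served for 1 alternative. Symbols came from GENCODE M21, which matched 53582 of 53677 identifiers.

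Counts were tested with edgeR 4.0.16 in R 4.3.3 (filterByExpr, TMM, robust quasi-likelihood fit with 4 group means over 24 libraries, prior count 0.125), with Benjamini-Hochberg adjustment over 14533 genes and calls at 0.05, two-sided. Fold changes are log2, and SE was derived from the F statistic. DESeq2 and limma 3.58.1 served as alternatives. Total counts per library were 6707013 to 13124881. No pair of replicate libraries agreed within sampling noise. The fitting steps were tested on simulated data. All 10 genes were named whatever their p, other lists by their counts and up to 4 genes with the smallest p in a comparison, and further genes by correlation; Clec4f, Mmp12, Ccl2 and Lyz1 were added after values were seen, as were a few lower-ranked list genes. The 10 genes and the lists were chosen with earlier results of these data known.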

Additional observations from a re-analysis of the deposited data

Results flagged for a closer look

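In 8 of the 40 combinations of gene and group, the highest mouse lay farther from the next than expected from the spread of the others (chance marks about 1 in 20). In C57BL/6J on high-fat diet, replicate 5 stood apart for Cx3cr1 (7.21 CPM, next 2.54) and Trem2 (2.54 CPM, next 1.36). Replicate 2 of the same group stood apart for Mpeg1 (251 CPM, next 151) and Cd44 (43.2 CPM, next 23.5). In 129S1/SvImJ on high-fat diet, replicate 5 stood apart for Itgax (5.49 CPM, next 1.31), Gpnmb (2.48 CPM, next 0.541) and Lyz2 (47.7 CPM, next 25.5). In 129S1/SvImJ on chow, replicate 2 stood apart for Gpnmb (8.69 CPM, next 0.45). All 8 were on the high side and came from 4 mice.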

How the results depend on the processing

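Over 34 values of single genes and 1307 other fits, 1228 kept their direction and side of the threshold, 33 lost the call, 35 gained one and 11 changed sign. The main fit tested 8 of the 10 genes, and 7 passed the filter without the 3 high libraries and within the lower 12 libraries by 7SK RNA, 9 within the upper 12, and 10 were fitted with no filter. Diet in 129S1/SvImJ called 2, 2 to 3 when 1 library was left out, and 0 within the lower and 0 within the upper 12 by 7SK. Diet in C57BL/6J called 1, and 0 to 3 when 1 library was left out. It called 2 with DESeq2 size factors, 0 with no filter on low counts, 3 with a mean of at least 1 CPM, 3 with DESeq2, 2 with 7SK as a covariate, 0 without the libraries with fat-cell transcripts, 4 with the Kupffer level as a covariate, 0 without the 3 high libraries, and 0 within the lower and 0 within the upper 12 by 7SK. Where edgeR called 0 for diet, unadjusted p was under 0.05 for 1 to 6 genes. These included Trem2 for diet in C57BL/6J with no filter and within the upper 12. They did not include it for diet in 129S1/SvImJ within the upper 12. Strain on chow called 4 in every fit without 1 library, 0 with the Kupffer level as a covariate and 2 within the lower 12. Strain on high-fat diet called 3 to 6 without 1 library and 2 within the upper 12. The cause of these changes was not tested, and the 7SK sets hold 12 samples each.

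Changes of sign were seen for Cx3cr1, diet in 129S1/SvImJ (-0.99 within the lower 12), and for Gpnmb, the same comparison (2.04 within the upper 12; -2.55 to 2.08 without 1 library). Ccl6 for diet in C57BL/6J was -0.027 without the 3 high libraries and -0.10 within the upper 12, where Cd44 was -0.052, and Lyz2 was -0.012 without the 3 high libraries. With the Kupffer level as a covariate, Itgax and Ccr2 for strain on chow were 0.39 and 0.26 and Ccl6 for strain on high-fat diet was 0.20. Gpnmb for strain on chow ran from -0.65 to 3.33 without 1 library. The Kupffer, 3 high library and 7SK fits were chosen after seeing the data. Gpnmb did not pass the filter without the 3 high libraries, and a fit of only the compared groups gives no interaction.

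Replicate numbers were not taken to pair the mice, since in no pair of groups did every same-numbered deviation correlate over 0.1. The correlations ran from -0.22 to 0.31; over 0.1 were 4 of 5 between the chow groups, 1 of 5 and 2 of 6 between diets in 129S1/SvImJ and C57BL/6J and 2 of 6 between the high-fat groups, and at most 2 mice of a pair of groups correlated best with their own number. With the replicate block, diet in C57BL/6J called 3 genes in place of 1. Low counts limit Itgam, Trem2, Gpnmb and Cx3cr1.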
